A study of Mus musculus with 18 samples.

Results

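The small leucine-rich proteoglycans (SLRPs) were followed at the RNA level in cultured mouse bone marrow mesenchymal stem cells (MSCs). The 9 genes were decorin (Dcn), biglycan (Bgn), lumican (Lum), fibromodulin (Fmod), osteoglycin (Ogn), asporin (Aspn), osteomodulin (Omd), prolargin (Prelp) and podocan (Podn), taken by symbol from a table of 27179 genes. All 9 were found. They were measured in 18 libraries, 6 in each of 3 groups. Young MSCs came from mice of 6 weeks, old MSCs from mice of 18 to 24 months, and the rejuvenated group consisted of old cells kept for 7 days in wells shared with young MSCs. All were primary cells of the C57BL6 genotype, given no drug. Medium with 20% serum is named in the sources used here. The study's methods give a lower share of serum for expanding the cells and name no medium for the sequenced cultures. A 0.4 µm Transwell membrane kept both cell populations apart in co-culture and let soluble factors pass. The old MSCs were cultured separately, and the labels name no cells across the membrane from them, so an effect of the young cells and an effect of having more cells in the well cannot be told apart. Replicates are labelled as biological, and whether each came from its own mouse or from pooled marrow is not given in the sources used here. Age and a difference between cell preparations therefore cannot be told apart. P-values measure the spread between these libraries.

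SLRPs are secreted proteins built around a row of leucine-rich repeats, and several of them carry a chondroitin, dermatan or keratan sulfate chain. They bind to collagen and set how fibrils assemble and how thick they become, and some of them also hold growth factors or signal through cell surface receptors. Stromal cells of connective tissue, bone and marrow are among their main sources. The family is divided into classes by sequence: class I holds Dcn, Bgn and Aspn, class II holds Lum, Fmod, Omd and Prelp, class III holds Ogn and class V holds Podn.

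Several members are neighbours in the genome, on GRCm38 (mm10). On chromosome 13, Aspn (49544443 to 49567565), Omd (49582462 to 49592612) and Ogn (49608015 to 49624501) lie in this order on the plus strand, 14.9 and 15.4 kb apart, and all 3 lie inside the span of Cenpp, which is on the opposite strand and shares no exon base with them. On chromosome 10, Dcn (97479500 to 97518163) is followed after 47.3 kb by Lum (97565501 to 97572703). On chromosome 1, Prelp (133910304 to 133930102, minus strand) and Fmod (134037254 to 134048280, plus strand) are 107 kb apart. Bgn (73483601 to 73495936) is on X and Podn (108014793 to 108031954) on chromosome 4. Of the 9, 1 had an exon overlap with another gene: 350 bases of Prelp are shared with Gm15851 on the opposite strand. The library kit marks strand, and the strand setting used in counting is not given in the sources used here, so reads over these 350 bases could belong to either gene.

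The 250 bases before the annotated start are shown for the 5 members of the chromosome 13 and chromosome 1 groups, since members that lie side by side there differed from each other between the groups. They come from the RefSeq annotation of GRCm38.p6, matched for 7 of the 9 members (all but Dcn and Lum). The windows are chr13:49544193-49544442 (plus strand) for Aspn, chr13:49582212-49582461 (plus strand) for Omd, chr13:49607765-49608014 (plus strand) for Ogn, chr1:133921402-133921651 (minus strand) for Prelp and chr1:134037004-134037253 (plus strand) for Fmod. The start used for Prelp lies inside the gene's annotated span. Each is written 5′ to 3′ on the gene's own strand, and capitals mark matches, on either strand, to 6 short motifs.
Aspn: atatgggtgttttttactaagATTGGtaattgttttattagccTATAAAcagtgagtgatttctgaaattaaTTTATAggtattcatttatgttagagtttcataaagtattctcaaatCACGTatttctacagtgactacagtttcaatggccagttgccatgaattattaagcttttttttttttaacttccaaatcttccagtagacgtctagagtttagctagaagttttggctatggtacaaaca
Omd: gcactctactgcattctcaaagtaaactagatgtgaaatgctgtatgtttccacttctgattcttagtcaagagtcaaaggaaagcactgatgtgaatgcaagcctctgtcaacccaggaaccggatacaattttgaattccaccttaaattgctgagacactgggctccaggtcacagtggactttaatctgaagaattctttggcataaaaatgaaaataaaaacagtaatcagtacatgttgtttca
Ogn: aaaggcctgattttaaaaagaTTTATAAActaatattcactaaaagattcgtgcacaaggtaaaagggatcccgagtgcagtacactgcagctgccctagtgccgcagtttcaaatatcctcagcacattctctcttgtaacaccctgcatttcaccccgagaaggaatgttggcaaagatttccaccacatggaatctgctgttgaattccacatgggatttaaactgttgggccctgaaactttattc
Prelp: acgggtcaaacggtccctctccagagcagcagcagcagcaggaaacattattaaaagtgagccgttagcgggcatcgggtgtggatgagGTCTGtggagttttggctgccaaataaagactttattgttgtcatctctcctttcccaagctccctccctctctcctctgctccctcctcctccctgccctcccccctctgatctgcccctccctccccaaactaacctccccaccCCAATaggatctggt
Fmod: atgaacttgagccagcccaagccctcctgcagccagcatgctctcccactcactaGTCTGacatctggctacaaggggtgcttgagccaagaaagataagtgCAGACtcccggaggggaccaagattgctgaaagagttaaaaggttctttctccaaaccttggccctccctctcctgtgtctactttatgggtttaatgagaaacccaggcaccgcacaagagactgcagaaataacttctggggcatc
The motifs searched were the TATA box (TATAAA), the CCAAT box (CCAAT), the GC box (GGGCGG), the AP-1 site (TGANTCA), the SMAD core (CAGAC) and the hypoxia response core (ACGTG). The Aspn window held 2 TATA box matches, 1 CCAAT match and 1 hypoxia response core, whereas the Ogn window held 2 TATA box matches that overlap each other. The Prelp window held 1 CCAAT match close to the start and 1 SMAD core, and that of Fmod held 2 SMAD cores. The Omd window held none of the 6 motifs. Such matches are common: of 32851 mouse promoter windows of this length, 12.4% held a TATA box, 33.8% a CCAAT box, 32.7% a GC box, 6.75% an AP-1 site, 42.2% a SMAD core and 16.6% a hypoxia response core. A match describes these letters and is no evidence of binding.

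The values are normalized counts, reads divided by 1 size factor per library. The libraries held 22936251 to 25648769 reads in the young group, 24965971 to 29559194 in the old group and 26018046 to 29155223 in the rejuvenated old group. Differences were tested with limma on log2(normalized count + 1) over 14353 genes with a mean of at least 10, with Benjamini-Hochberg adjusted p under 0.05 as the call, and log2 differences below are on that scale. Since bulk RNA was sequenced, fewer cells of a type and less RNA per cell cannot be told apart. The MSC surface marker genes Cd44 and Ly6a (which encodes Sca-1) were read in every library, at 2021 to 3239 and 5629 to 33910 normalized counts. Thy1 and Nt5e, also on the list of stromal markers, ran from 175 to 227 and from 254 to 326 in young MSCs, and from 0 to 3.23 and 12.9 to 23.1 in old MSCs. Of the 10 stromal markers, 4 were higher and 6 lower in young than in old MSCs, where 41.6% of all tested genes were higher and 44.1% lower. Pdgfra was also higher in young MSCs, at a mean of 14051 against 4075, whereas Eng (163 against 7340), Cxcl12 (9227 against 197374), Vcam1 (928 against 6408), Lepr (36.2 against 378), Pdgfrb (10773 against 17355) and Cd44 (2137 against 2954) were lower. The 15 macrophage markers summed to 697 to 786 normalized counts in young MSCs, 17641 to 21958 in old MSCs and 17551 to 21379 after co-culture. Ptprc and Adgre1, which define blood and macrophage lineages, were at 0 in every young library and at 162 to 208 and 243 to 333 in the old ones. Of the 6 endothelial markers, Pecam1 reached at most 22.9 and Cdh5 at most 4.05 normalized counts in any library, while Cd34 ran from 6787 to 7191 in young and from 19.4 to 28 in old MSCs. In rejuvenated old replicate 1, Cd34 reached 402, whereas replicates 2 to 6 held 24.2 to 41.9. Along a line from the old to the young group mean over all tested genes, with old at 0 and young at 1, this library lay at 0.092 and replicates 2 to 6 between 0.015 and 0.026. Without this library each of the 9 members kept its call for rejuvenated old minus old, and the differences were 0.60 for Dcn, 0.13 for Bgn, -0.57 for Lum, 0.43 for Fmod, 0.61 for Ogn, 0.62 for Aspn, 0.79 for Omd, 1.74 for Prelp and 0.36 for Podn.

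Young and old MSCs differed in the levels of the SLRP genes. Young MSCs had more Dcn, Fmod, Lum, Ogn, Podn and Prelp, while old MSCs had more Bgn, Omd and Aspn. Fmod was 29.1-fold and Dcn 18.7-fold higher in young MSCs, and Bgn was 1.99-fold higher in old MSCs. Thus 6 members were higher and 3 lower in young MSCs, where 41.6% of all tested genes were higher and 44.1% lower. After co-culture, 8 members were higher in rejuvenated old than in old MSCs, 0 were lower, and Lum did not pass the test, where 21% of all tested genes were higher and 20.6% lower. Against young MSCs, rejuvenated old MSCs were higher in 4 members and lower in 5, where 44.1% of all tested genes were higher and 41.5% lower. The median difference over the 9 was 0.57 for young minus old, 0.59 for rejuvenated old minus old and -0.24 for rejuvenated old minus young, beside -0.02, 0.01 and 0.03 over all tested genes. Lum passed the filter on low values only through the young libraries and so had to differ there. Any 2 of these comparisons share a group of libraries. In rejuvenated old against old MSCs the count of members that fell was 0 by limma also at an unadjusted p under 0.05, and 0 with DESeq2 and edgeR.

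**Figure D1:**
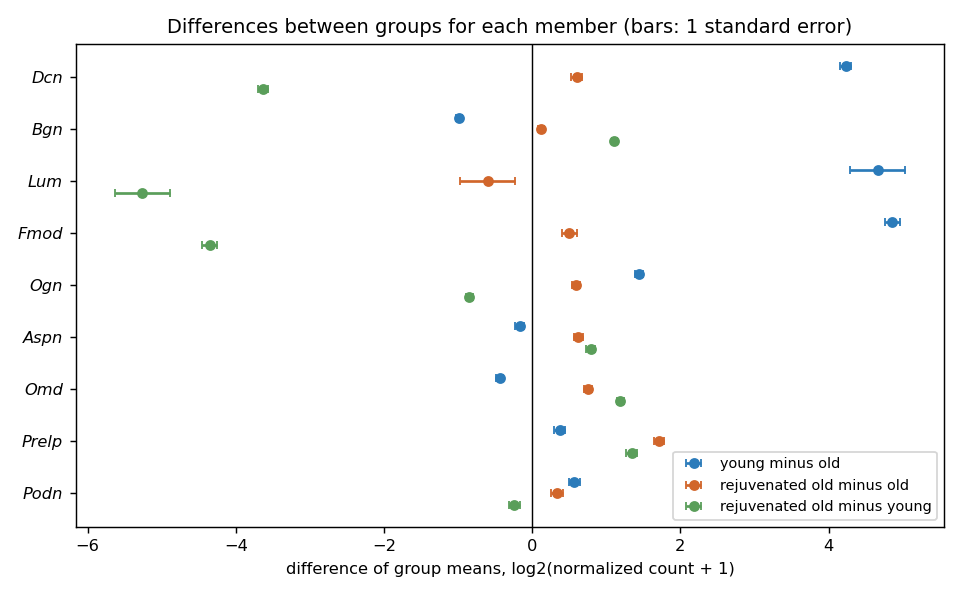
Difference of group means on the log2(normalized count + 1) scale (x axis) for each of the 9 members (y axis), with young minus old in blue, rejuvenated old minus old in orange and rejuvenated old minus young in green, and bars of 1 standard error. All orange points except that of Lum lie to the right of 0, between 0.12 (Bgn) and 1.71 (Prelp), whereas the blue points run from -0.99 (Bgn) to 4.86 (Fmod).

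Decorin, a class I member that binds collagen fibrils and TGF-β, was a high-level transcript in young MSCs. It ran from 4729 to 5294 normalized counts there (median 5112), from 244 to 325 in old MSCs (median 260.4) and from 351 to 476 in rejuvenated old MSCs (median 411). No library of any group reached the range of another group. Young MSCs exceeded old MSCs by 4.23 (SE 0.07, limma adjusted p = 6.66e-24). Rejuvenated old MSCs exceeded old MSCs by 0.60 (SE 0.07, limma adjusted p = 3.76e-07), a 1.52-fold rise, and stayed 12.3-fold below young MSCs.

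Biglycan, the closest relative of decorin and a ligand of Toll-like receptors, went the other way and was lower in young than in old MSCs. It ran from 54420 to 62515 normalized counts in young MSCs (median 59492), from 110503 to 120617 in old MSCs (median 117863) and from 124205 to 133563 in rejuvenated old MSCs (median 126689). The 3 ranges did not overlap, with young MSCs lowest and rejuvenated old MSCs highest. The difference was -0.99 (SE 0.04, limma adjusted p = 1.22e-16) for young minus old. For rejuvenated old minus old it was 0.12 (SE 0.04, limma adjusted p = 0.0153), a 1.09-fold difference that was lost with quantile normalization (0.06, adjusted p = 0.202). Within each library, the log2 ratio of Bgn to Dcn was 3.55 ± 0.09 in young MSCs, 8.77 ± 0.12 in old MSCs and 8.29 ± 0.15 after co-culture (SD, n = 6 each). The rejuvenated old minus old difference of this ratio was -0.48, with no overlap between groups (SE 0.08, two-sided exact permutation p = 0.00216, the smallest that 6 against 6 libraries can give, adjusted p = 0.00325 over 18 ratio tests).

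Asporin, a class I member that binds collagen and lacks the glycosaminoglycan chain of its relatives, differed little between young and old MSCs. The range was 1726 to 1964 normalized counts in young MSCs (median 1786), 1876 to 2187 in old MSCs (median 2048) and 2641 to 3567 in rejuvenated old MSCs (median 3111). Young and old libraries overlapped, and every rejuvenated old library was above all others. The young minus old difference of -0.17 (SE 0.06, limma adjusted p = 0.0122) did not pass when libraries were scaled to the same total (-0.09, adjusted p = 0.141) or quantile normalized (-0.12, adjusted p = 0.0617). After co-culture Aspn was 1.54-fold higher than in old MSCs (0.62, SE 0.06, limma adjusted p = 2.47e-08) and 1.73-fold higher than in young MSCs (0.79, SE 0.06, limma adjusted p = 2.16e-11).

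**Figure D2:**
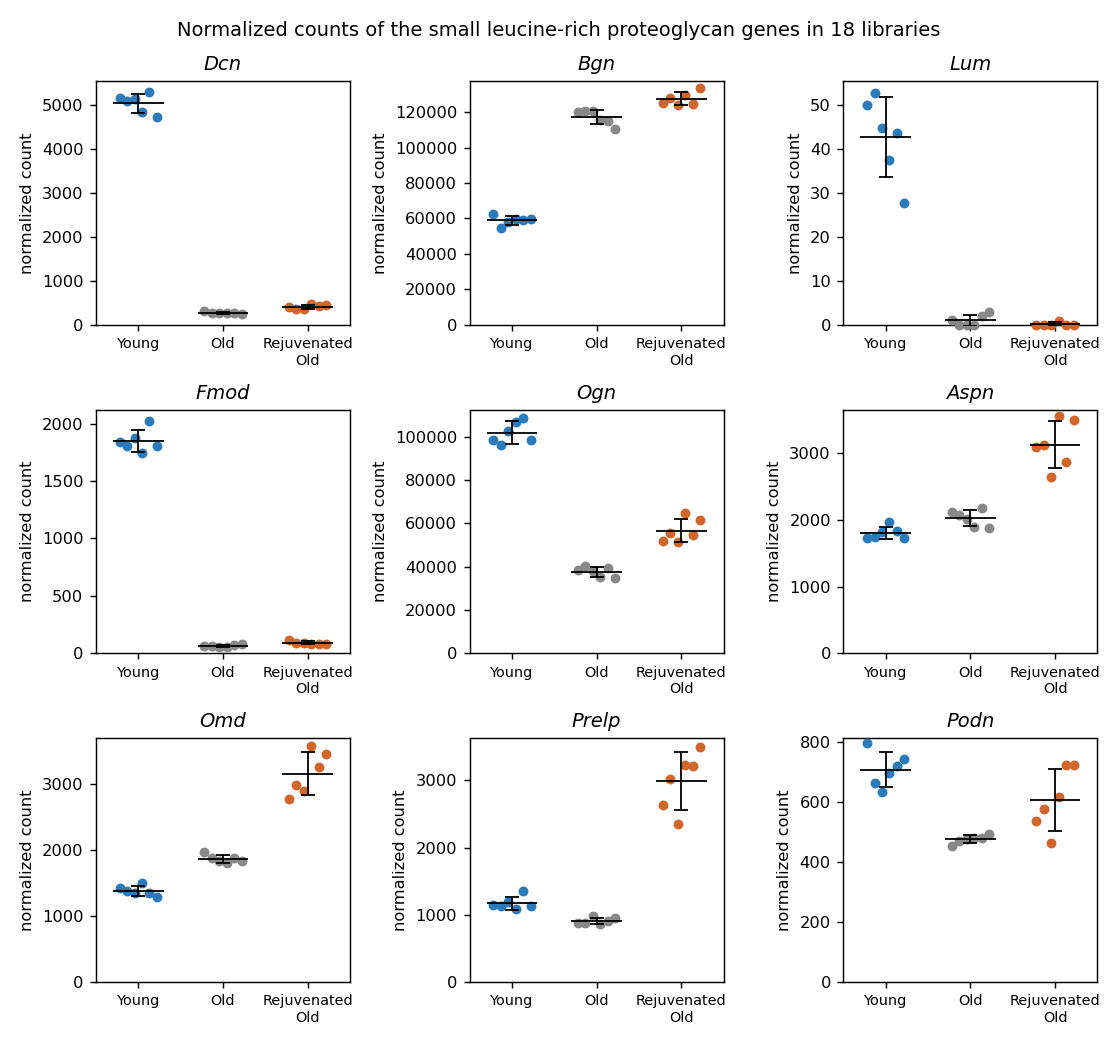
Normalized counts (y axis, linear from 0, own scale in each panel) of the 9 members in the 6 young (blue), 6 old (grey) and 6 rejuvenated old (orange) libraries. Points are libraries, horizontal lines the group means and bars 1 SD. In Dcn, Fmod and Lum the old and rejuvenated old libraries lie close to 0 against the young ones, whereas in Aspn, Omd and Prelp the rejuvenated old libraries lie above every young and old library.

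Among class II members, fibromodulin and lumican compete for the same stretch of collagen I and act at successive steps of fibril growth. Fmod ran from 1749 to 2025 normalized counts in young MSCs (median 1825), from 52.7 to 79.9 in old MSCs (median 61.8) and from 79.2 to 114 in rejuvenated old MSCs (median 87.2). Young libraries stood far above all others, while the lowest rejuvenated old library lay just inside the old range. Young MSCs exceeded old MSCs by 4.86 (SE 0.10, limma adjusted p = 3.04e-22). The rise with co-culture was 0.50 (SE 0.10, limma adjusted p = 0.000264), and the level remained 20.5-fold below that of young MSCs. Rejuvenated old replicate 1 held the highest value of its group.

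Lumican was low throughout. It ran from 27.8 to 52.8 normalized counts in young MSCs (median 44.2), and no old library held more than 3 reads and no rejuvenated old library more than 1. Old and rejuvenated old MSCs were thus at the floor of 3 reads per library. Young MSCs were at least 14.2-fold higher than old and at least 14.8-fold higher than rejuvenated old MSCs. Rejuvenated old and old MSCs could not be told apart for Lum at this depth (limma adjusted p = 0.2).

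Prolargin, which anchors basement membranes to connective tissue, showed the largest response to co-culture in the family. It ran from 1078 to 1359 normalized counts in young MSCs (median 1139), from 863 to 984 in old MSCs (median 889.9) and from 2349 to 3501 in rejuvenated old MSCs (median 3118). The 3 ranges did not overlap. Young MSCs exceeded old MSCs by 0.37 (SE 0.07, limma adjusted p = 9.34e-05). Rejuvenated old MSCs exceeded old MSCs by 1.71 (SE 0.07, limma adjusted p = 5.45e-14), a 3.3-fold difference that ranked 62 of 14353 genes by size, and exceeded young MSCs 2.56-fold (1.34, SE 0.07, limma adjusted p = 6.46e-14). Although Fmod and Prelp are both class II members and lie near each other, their ratio turned over: log2 of Fmod to Prelp was 0.66 ± 0.04 in young MSCs, -3.83 ± 0.22 in old MSCs and -5.04 ± 0.38 after co-culture (SD, n = 6 each). The 3 groups did not overlap, and each difference had a two-sided exact permutation p = 0.00216 (adjusted p = 0.00325).

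Osteomodulin, a keratan sulfate proteoglycan best known from mineralizing bone, was higher in old than in young MSCs and higher again after co-culture. It ran from 1291 to 1496 normalized counts in young (median 1363), from 1804 to 1974 in old (median 1856) and from 2769 to 3588 in rejuvenated old MSCs (median 3126), with no overlap. The young minus old difference was -0.44 (SE 0.05, limma adjusted p = 6.75e-08). The rejuvenated old minus old difference was 0.75 (SE 0.05, limma adjusted p = 1.61e-10), a 1.69-fold rise, and against young MSCs the rise was 2.29-fold.

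Osteoglycin, the class III member, also called mimecan, was the most abundant SLRP transcript of young MSCs. It ran from 96229 to 108983 normalized counts in young (median 100613), from 34825 to 40534 in old (median 38153) and from 51620 to 64788 in rejuvenated old MSCs (median 55250). The rejuvenated old libraries lay between the other groups with no overlap on either side. Young MSCs exceeded old MSCs by 1.44 (SE 0.05, limma adjusted p = 5.8e-17) and rejuvenated old MSCs exceeded old MSCs by 0.59 (SE 0.05, limma adjusted p = 1.68e-08). Rejuvenated old MSCs remained 1.8-fold below young MSCs (-0.85, SE 0.05, limma adjusted p = 1.26e-12).

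Podocan, the class V member, a collagen-binding protein described in kidney and vessel wall, was highest in young MSCs and most variable after co-culture. It ran from 634 to 798 normalized counts in young (median 709), from 455 to 495 in old (median 478) and from 465 to 725 in rejuvenated old MSCs (median 597). Young and old libraries did not overlap, while the rejuvenated old libraries were the most spread and overlapped both. The differences were 0.57 (SE 0.08, limma adjusted p = 1.39e-06) for young minus old, 0.33 (SE 0.08, limma adjusted p = 0.00281) for rejuvenated old minus old and -0.24 (SE 0.08, limma adjusted p = 0.0121) for rejuvenated old minus young.

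Members fell into different orders in relation to both ages. Dcn, Fmod, Ogn and Podn were higher in young than in old MSCs, and in rejuvenated old MSCs were called higher than in old and lower than in young MSCs. Bgn, Aspn, Omd and Prelp were called higher in rejuvenated old MSCs than in both old and young MSCs, as were 9.48% of all tested genes. Of these 4, Bgn, Aspn and Omd were lower in young than in old MSCs, so that with co-culture their level was farther from that of young cells, and that of Prelp was past it. For Aspn the difference between young and old MSCs rests on the scaling used, as given above. In 6 of the 9 members (Dcn, Bgn, Ogn, Aspn, Omd and Prelp) no rejuvenated old library overlapped an old one in the upward direction, where 10.4% of all tested genes did so. Between young and old MSCs 8 members did not overlap, and this held for 73.9% of all tested genes. Between rejuvenated old and young MSCs 8 members did not overlap, against 70.5% of all tested genes.

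The trio on chromosome 13 held neighbours whose ratio differed between young and old MSCs. Log2 of the Ogn to Omd ratio was 6.21 ± 0.09 in young MSCs, 4.33 ± 0.07 in old MSCs and 4.17 ± 0.06 after co-culture (SD, n = 6 each). The young minus old difference was 1.87 (SE 0.05, two-sided exact permutation p = 0.00216, adjusted p = 0.00325). The rejuvenated old minus old difference, -0.17 (SE 0.04), was small and also passed (two-sided exact permutation p = 0.00216, adjusted p = 0.00325). Log2 of the Ogn to Aspn ratio was 5.82 ± 0.04 in young MSCs, 4.21 ± 0.04 in old MSCs and 4.18 ± 0.08 after co-culture. It differed by 1.61 between young and old MSCs (SE 0.02, two-sided exact permutation p = 0.00216, adjusted p = 0.00325). Between rejuvenated old and old MSCs the difference was -0.03 (SE 0.04, two-sided exact permutation p = 0.405, adjusted p = 0.429), and their ranges overlapped.

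**Figure D3:**
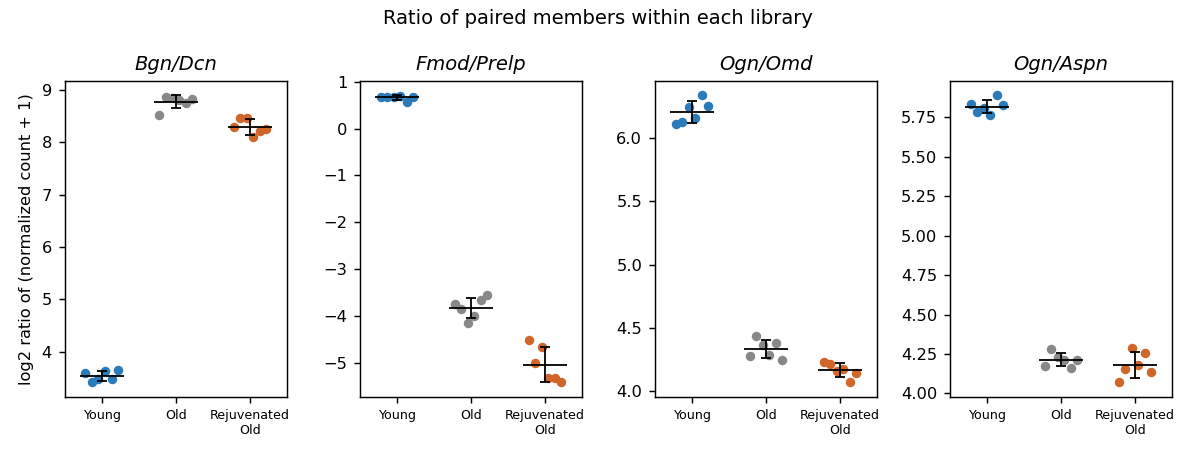
Log2 ratio of 2 members within each library (y axis, log scale, not starting at 0), for Bgn to Dcn, Fmod to Prelp, Ogn to Omd and Ogn to Aspn. Points are the 6 young (blue), 6 old (grey) and 6 rejuvenated old (orange) libraries, lines are means and bars 1 SD. The young libraries stand apart in all 4 panels, and in Ogn to Aspn the old (4.21) and rejuvenated old (4.18) means lie within the spread of the libraries.

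To place these differences among nearby genes, each member was set beside the 3 nearest tested genes on each side that are not members (6 in all) and beside its whole chromosome. On chromosome 1 the median difference of 798 genes was -0.69 for young minus old, against -0.03 on the autosomes. Fmod, at 4.86, and Prelp, at 0.37, lay above that median, and the 6 genes around them ran from -2.36 to 0.38. For rejuvenated old minus old the chromosome 1 median was -0.01, and the genes around Prelp ran from -0.11 to 0.90. The value at 0.90 was Optc (opticin), itself an SLRP relative, which lies beside Prelp on the side away from Fmod. Around Dcn and Lum the 6 nearest genes ran from -0.79 to 0.82 for young minus old, far below both members. For rejuvenated old minus old they ran from -0.52 to 0.09, with Dcn above this range (0.60). Lum, at -0.60, was at the floor in both groups and did not pass the test (limma adjusted p = 0.2). Its difference ran from -2.02 to -0.11 over the alternative settings, so its place beside these genes is not settled. Bgn lay below its surroundings for young minus old (-0.99, against -0.56 to 2.43). Podn lay above its own in both comparisons (0.57 against -0.97 to 0.35, and 0.33 against -0.14 to 0.30). The second margin was narrow, since the SE of Podn was 0.08 and its difference ran from 0.28 to 0.41 when single libraries were left out. On chromosome 13, the 6 genes around the trio ran from 0.01 to 7.34 for young minus old, so that Aspn (-0.17) and Omd (-0.44) lay below them and Ogn (1.44) among them. For rejuvenated old minus old these 6 genes ran from 0.12 to 0.76 with a median of 0.25, where the chromosome median was 0.02, and the trio lay in the upper part of that range, at 0.59 to 0.75.

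**Figure D4:**
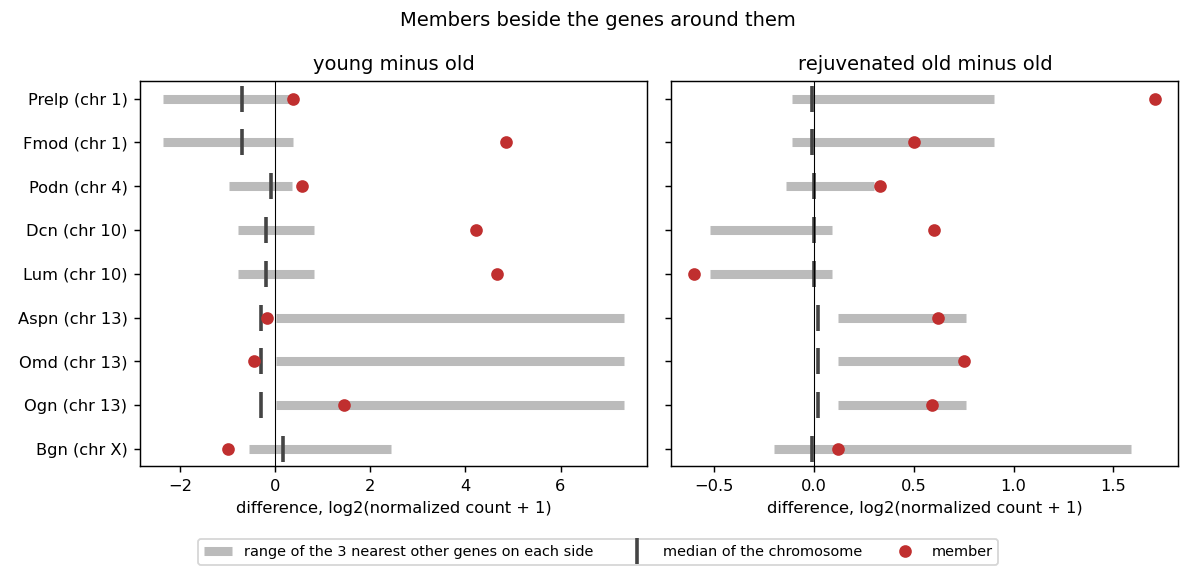
Differences on the log2(normalized count + 1) scale (x axis) for young minus old (left) and rejuvenated old minus old (right). Red points are the members, grey bars the range of the 3 nearest tested genes on each side that are not members, and dark ticks the median of all tested genes on the chromosome. On the left Fmod, Dcn, Lum, Podn, Aspn, Omd and Bgn lie outside the range of their surroundings, the last 3 below it. On the right Prelp, Dcn and Podn lie above it, Podn narrowly (0.33, SE 0.08, against 0.30). The point of Lum on the right lies below it, but Lum was at the floor of reads in both groups.

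Levels between genes were compared per kb of transcript. In young MSCs Ogn made up 57.2% ± 1.26 of the summed family level per kb and Bgn 35.1% ± 1.26 (SD, n = 6). In old MSCs the order of these was the opposite, with Bgn at 74.1% ± 0.758 and Ogn at 22.5% ± 0.732. In rejuvenated old MSCs Bgn held 66.9% ± 1.58 and Ogn 28% ± 1.31. Bgn was among the most abundant transcripts of the old cells, at rank 11 of 14028 per kb in old and 9 in rejuvenated old MSCs, against 50 in young MSCs. Ogn went from rank 17 in young to 80 in old and 48 in rejuvenated old MSCs. Dcn held 4.13% ± 0.213 in young MSCs, 0.234% ± 0.0213 in old MSCs and 0.294% ± 0.0248 after co-culture. The summed level of the 9 genes per kb was 69530 ± 2630 in young MSCs, 65376 ± 2433 in old MSCs and 78867 ± 3825 after co-culture. The 9 genes held 0.678%, 0.597% and 0.718% of all reads in these groups.

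Below the leading pair, the order also changed. In young MSCs Dcn came next, followed by Aspn, Omd, Fmod, Prelp, Podn and Lum, with Omd and Fmod overlapping. In old MSCs Aspn, Omd, Prelp, Dcn, Podn, Fmod and Lum followed, with overlap of Aspn with Omd and of Dcn with Podn. In rejuvenated old MSCs Omd and Aspn overlapped at the head of the same sequence, Prelp came next, and Dcn and Podn overlapped again. Every other neighbour in these orders was separate, with no library in common range.

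**Figure D5:**
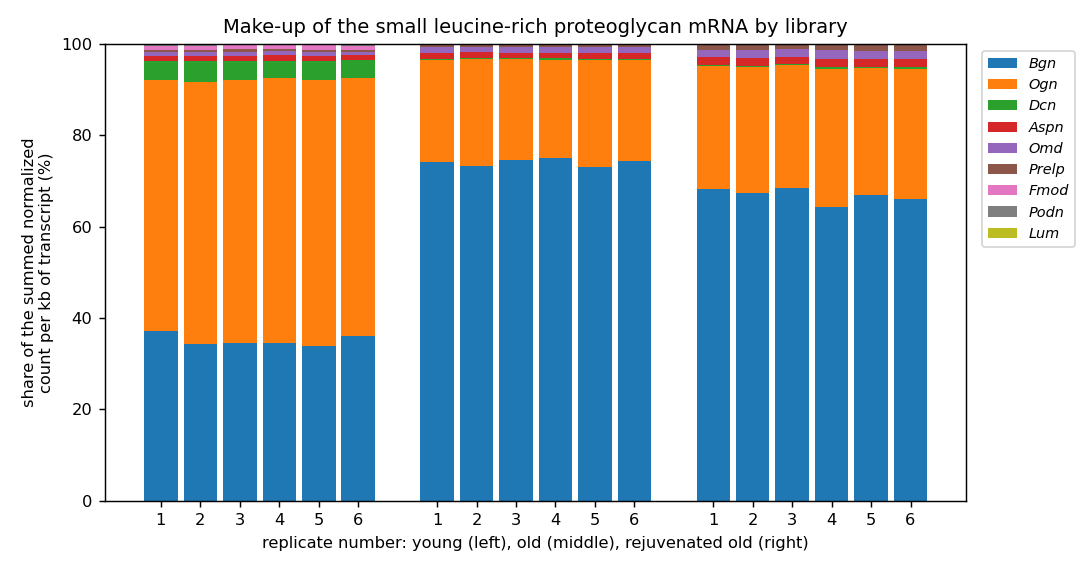
Share of each member (stacked, %) in the summed normalized count per kb of the 9 genes (y axis, from 0 to 100%), for the 6 young, 6 old and 6 rejuvenated old libraries by replicate number. Ogn (orange) fills more than Bgn (blue) in each young library, and Bgn fills 73 to 75% in the old and 64.3 to 68.5% in the rejuvenated old libraries.

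For each member, the genes with the most similar course over the 18 libraries were found by the root mean square difference of their mean-centred log2 values. Nearest to Prelp was Serping1, the C1 inhibitor of complement (0.153), with means of 1637, 1472 and 4196 normalized counts in the young, old and rejuvenated groups. Sik1 and Apln, which encodes the peptide apelin, came next at 0.219 and 0.245. Nearest to Omd was Vegfc (0.0821), a lymphatic growth factor, with means of 227, 312 and 532, followed by Adra1d and Lmo4. Aspn was nearest to Npr3, a natriuretic peptide receptor (0.102), then to Rbpj and Fbln5, and Ogn to Pmp22 (0.102), Fut11 and Ppp3cc. The genes nearest to Dcn were Srpx (0.177), Rgma and Rassf7. Those nearest to Fmod were Aff3 (0.18), Pdgfrl and Pde8b. Lum was followed only loosely, by Adam33 (0.547), by Scx, a tendon transcription factor that ran from 1173 to 1287 in young and from 28 to 42.3 in old MSCs, and by Tspan7. Podn was nearest to B3gntl1 (0.116), Sbf2 and C1s1, and Bgn to Snx4 (0.0477), Nptn and Septin7. With quantile normalization 0 of these 3 genes remained for Bgn, 0 for Lum and 1 for Ogn.

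Of 9 SLRP relatives, 5 could be tested. Ecm2, which lies next to the chromosome 13 trio, was higher in young (0.70, SE 0.06, limma adjusted p = 5.77e-10) and in rejuvenated old MSCs (0.25, SE 0.06, limma adjusted p = 0.00334) than in old MSCs. Optc, next to Prelp, was 1.87-fold higher in rejuvenated old than in old MSCs (0.90, SE 0.15, limma adjusted p = 5.75e-05), at a mean of 84.5 against 45.2 normalized counts. Its level was 0.38 higher in young than in old MSCs (SE 0.15, limma adjusted p = 0.0261), with overlapping groups. That call was lost without young replicate 2, old replicate 1 or old replicate 5 (limma adjusted p = 0.0865, 0.0527 and 0.0738). Podnl1 and Chadl were higher in old than in young MSCs, by differences of -0.72 and -0.77 for young minus old. Tsku (tsukushi) was the single relative that was lower after co-culture (-0.52, SE 0.05, limma adjusted p = 1.75e-08). Over the list, 2 were higher and 3 lower in young than in old MSCs, and with co-culture 3 rose and 1 fell. Over all tested genes 41.6% were higher and 44.1% lower in young MSCs, and with co-culture 21% rose and 20.6% fell.

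The enzymes that build and sulfate the glycosaminoglycan chains were mainly lower in young MSCs. For chondroitin and dermatan sulfate, 4 of 20 tested enzymes were higher and 15 lower in young than in old MSCs, with a median of -0.55. Over all tested genes 41.6% were higher and 44.1% lower. Chsy3, a chondroitin synthase, was at 0 reads in each young library and had a mean of 137 normalized counts in old MSCs, at least 43.3-fold higher. Chst15 was 8.88-fold higher in old MSCs, whereas Ust, a uronyl sulfotransferase, was 3.89-fold higher in young MSCs and Chst3 15.1-fold higher. Chst3 passed the filter on low values only through the young libraries, and Chsy3 only through the old and rejuvenated old ones. Both therefore had to differ between young and old MSCs. With co-culture 3 were higher and 9 lower than in old MSCs, with a median of -0.12, where 21% of all tested genes were higher and 20.6% lower. Among the enzymes called lower, Chsy3 (limma adjusted p = 0.0428) and Chst15 (limma adjusted p = 0.03) lost the call in several settings. In the replicate block their limma adjusted p-values were 0.0637 and 0.0524. Chst11 (-0.58) and Ust (-0.57) fell most, and Chst12 (0.19) and Chst14 (0.15) rose most, all 4 by limma at adjusted p under the threshold. For keratan sulfate, which Fmod, Lum and Omd can carry, Chst1 (1.68) and B3gnt2 (1.54) were higher and Chst2 (-1.47) and B4galt1 (-0.43) lower in young than in old MSCs, making 2 higher and 3 lower of 5 tested. With co-culture 3 of the 5 fell and 2 did not pass the test, and among those that fell were Chst2 (-0.73, SE 0.05) and B3gnt2 (-0.44, SE 0.04).

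Among the collagens that SLRPs bind, 3 of 13 were higher and 10 lower in young than in old MSCs, with a median of -1.58. Over all tested genes 41.6% were higher and 44.1% lower. Col11a1, a collagen that nucleates fibrils, was 225-fold higher in young MSCs and Col14a1, a fibril-surface collagen, 1.74-fold. Col2a1, the cartilage fibril collagen, was 219-fold and Col6a2 7.06-fold higher in old MSCs. Col11a1 passed the filter on low values only through the young libraries. Col2a1 passed it only through the old and rejuvenated old ones, so both had to differ between young and old MSCs. After co-culture 8 collagens were lower and 1 higher than in old MSCs, where 20.6% of all tested genes were lower and 21% higher. Col6a3 (-0.59) and Col6a2 (-0.42) fell most and Col2a1 rose by 0.62 (SE 0.09, limma adjusted p = 8.04e-06).

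Of 17 growth factors and receptors that SLRPs bind, 1 symbol was not in the table and 15 genes were tested. Of these, 6 were higher and 8 lower in young than in old MSCs, and 2 were higher and 10 lower after co-culture than in old MSCs. Over all tested genes 41.6% were higher and 44.1% lower in young MSCs, and 21% higher and 20.6% lower after co-culture. Tgfbr2, a TGF-β receptor, was 9.78-fold and Kdr, a VEGF receptor that decorin binds, 9.4-fold higher in young than in old MSCs, Kdr at 85.7 against 9.12 normalized counts. Kdr passed the filter on low values only through the young libraries and so had to differ there. Tgfb2 was 4.55-fold and Bmp4 4.05-fold higher in old MSCs. Bmp4, a bone morphogenetic protein, rose 3.59-fold with co-culture (1.83, SE 0.08, limma adjusted p = 3.3e-14), and Igf1r, the other member of this list that rose, did so by 0.09. Tgfb2 (-0.60) fell. Kdr was also called lower (-0.91, SE 0.30, limma adjusted p = 0.02), at a mean of 4.32 against 9.12 normalized counts with overlapping groups. Its call was lost in several settings, among them a pseudocount of 10 (limma adjusted p = 0.0502) and leaving out old replicate 2 (limma adjusted p = 0.0613).

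Proteases that cut SLRPs were largely higher in old MSCs. Of 7 tested, 1 was higher and 6 lower in young MSCs, where 41.6% of all tested genes were higher and 44.1% lower. Mmp13 was 197-fold and Mmp2 30.6-fold higher in old MSCs, and Mmp3 2.83-fold higher in young MSCs. With co-culture 3 rose and 3 fell, where 21% of all tested genes were higher and 20.6% lower. Adamts5, an aggrecanase that also cuts decorin and biglycan, rose 2.83-fold (1.49, SE 0.06, limma adjusted p = 3.71e-15), and Mmp13 rose 2.08-fold (1.06, SE 0.11, limma adjusted p = 4.91e-08). Mmp14 (-0.39) and Adamts4 (-0.34) fell.

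All 14 tested macrophage markers were lower in young than in old MSCs, where 44.1% of all tested genes were. Only 3 of the 15 listed had a mean of at least 10 in young MSCs. The other tested ones passed the filter only through the old and rejuvenated old libraries and so had to differ. Between rejuvenated old and old MSCs 1 was higher and 1 lower, with overlapping sums, against 21% and 20.6% of all tested genes. The part of these markers' cells in the differences between young and old MSCs was not tested.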

How the data were processed

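RNA from 18 cultures was sequenced from stranded mRNA libraries. Per the labels and the study's methods, the authors used HISAT2 for alignment to mm10, StringTie for assembly, featureCounts for counting and DESeq2 for normalization. Versions, annotation and the strand setting are not given in the sources used here. The deposited signal per gene is the read count divided by 1 size factor per library, with no replicates pooled. The step of each library returned whole reads for 100% of values (tolerance 0.001), and depth ran from 22936251 to 29559194 reads. A gene whose libraries in a group all held 3 reads or fewer was taken as at the floor there, and bounds were computed against 3 reads per library.

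The main test was limma 3.58.1 (R 4.3.3) with a variance trend on log2(value + 1) over all 18 libraries and 14353 genes with a mean of at least 10, in place of a count test because the values are normalized. P-values were adjusted by Benjamini-Hochberg over these genes. Ratios of members were compared with two-sided exact permutation tests (924 splits), adjusted over 18 tests. DESeq2 1.42.0 and edgeR 4.0.16 on the recovered reads, other pseudocounts, filters and scalings, a replicate block, fits of 2 groups and leaving out each library were alternatives. The code was tested on simulated data. Python 3.11.15, pandas 2.3.3, scipy 1.17.1 and matplotlib 3.10.9 were also used. Gene positions and promoters are from RefSeq GRCm38.p6. Transcript and coding lengths, gene strands, exon overlaps and the span of Cenpp are from GENCODE M21 on GRCm38.

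The members, the partner lists and the marker lists were chosen with earlier results of these data known. Named genes are the 9 members, from each partner list up to 2 called genes that rose most and 2 that fell most for young against old and for rejuvenated old against old MSCs, and the 3 genes nearest to each member. Ecm2, Optc and Scx are also mentioned for their position or level, and marker genes were chosen after their values were seen.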

Additional observations from a re-analysis of the deposited data

Results flagged for a closer look

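In 45 groups of 6 libraries (27 for the members and 18 for their ratios), 6 held a flagged library. Its gap to the nearest other reached Dixon's 95% critical value as a share of the whole range. Chance flags about 1 in 20 independent groups. The ratios are built from the member values, and each flagged ratio came from a library already flagged for a member. The count of 6 therefore cannot be set beside that rate. Dcn in old replicate 1 held 324.7 normalized counts, while old replicates 2 to 6 held 244.4 to 265.9, and its log2 ratio of Bgn to Dcn was 8.53 against 8.75 to 8.86. Prelp in young replicate 5 held 1359 normalized counts, while the remaining young libraries held 1078 to 1183, and its log2 ratio of Fmod to Prelp was 0.58 against 0.67 to 0.70. Lum in rejuvenated old replicate 4 was at 0.9657, which is 1 read, against 0 in the others, and its log2 ratio of Fmod to Lum was 5.37 against 6.32 to 6.85.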

How the results depend on the processing

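The counts of members called in each direction were within 1.5 times their main value in all 180 recomputations, and the counts of partner genes in all 90. Of 807 recomputed member differences, 804 kept their direction and call, and the 3 others are Aspn for young minus old (scaled to the same total -0.09, quantile normalized -0.12) and Bgn for rejuvenated old minus old (quantile normalized 0.06). The cause was not tested. Of 2874 recomputed partner differences 28 lost and 6 gained the call, and Col11a1 for rejuvenated old minus old ran from -0.18 (adjusted p = 0.55, without rejuvenated old replicate 1) to 0.44 (without rejuvenated old replicate 4) when single libraries were left out, around a main value of 0.23. DESeq2 and edgeR on the recovered reads called 12259 and 12276 genes for young against old and 6345 and 6213 for rejuvenated old against old MSCs, where limma called 12297 and 5971. Without a filter on low values, limma called 26.4% in the latter comparison, in which 21697 genes were tested.

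Ratios with Lum depend on the pseudocount, since Lum was at the floor in old and rejuvenated old MSCs. The log2 ratio of Fmod to Lum for young minus old was 0.20 in the main test, -0.41 with a pseudocount of 0.5 and 2.42 with 10, and with 10 that for rejuvenated old minus young turned from 0.91 to -1.87. The ratio of Dcn to Lum with a pseudocount of 10 was 1.93 for young minus old (main -0.43) and -1.24 for rejuvenated old minus young (main 1.63). The shares per kb depend on the length used. By coding length Bgn held 29.9%, 69.3% and 61.5% and Ogn 64.1%, 27.6% and 33.8% in young, old and rejuvenated old MSCs, and with no length correction Bgn held 73% in old and Ogn 59% in young and 23.5% in old MSCs.

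Replicate numbers are shared by the groups, but 0 of 18 same-numbered pairs had a correlation of deviations over 0.1 (range -0.15 to 0.07). Likewise 0 correlated best with its own number, so no pairing by number was seen. A pairing with a small effect would look the same, and the sources used here do not say whether the numbers pair the libraries. With the replicate block limma called 12219 genes for young against old and 5769 for rejuvenated old against old MSCs, and no member's call changed. With the block as sign flips within pairs, the ratios with Lum lost their call at adjusted p = 0.075 for Fmod to Lum (1.11 for rejuvenated old minus old and 0.91 for rejuvenated old minus young) and Dcn to Lum (1.20 for rejuvenated old minus old).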

Other observations

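Lists of markers of other cell types were read in the same fit. For young against old MSCs 41.6% of all tested genes were higher and 44.1% lower, and with co-culture 21% rose and 20.6% fell. Listed markers with a mean of at least 10 in young MSCs were 3 of 7 for osteoblasts and 4 of 7 for adipocytes. They were 1 of 7 for chondrocytes and 6 of 7 for smooth muscle or pericytes. Other tested markers of these lists passed the filter only through the old and rejuvenated old libraries and so had to differ. The 7 osteoblast markers were all lower in young than in old MSCs, and summed to 1845 to 2146 normalized counts in young, 4175 to 4301 in old and 3858 to 4376 in rejuvenated old MSCs. With co-culture 1 of them rose and 5 fell. The 6 tested adipocyte markers were lower in young MSCs, and 4 rose and 1 fell with co-culture, with sums of 16838 to 19370, 43193 to 45589 and 47587 to 60629 in young, old and rejuvenated old MSCs. Of 7 smooth muscle or pericyte markers, 1 was higher and 6 lower in young than in old MSCs, and 2 rose with co-culture. The 3 tested chondrocyte markers were lower in young MSCs, and 2 of them rose with co-culture. Of the 2 tested tendon markers, Scx was 35.4-fold higher and Mkx lower in young than in old MSCs, and both fell with co-culture. Of the 2 not tested, Tnmd had a mean of 0 in young and 8.245 in old MSCs, and Thbs4 of 6.445 and 0.1515. The 3 tested endothelial markers were higher in young MSCs, and the 6 listed summed to 6921 to 7301, 37.6 to 66.0 and 46.2 to 421 normalized counts in young, old and rejuvenated old MSCs. Cd34 alone made up 6787 to 7191 of the young sums, and the highest rejuvenated old sum was that of replicate 1, in which Cd34 was at 402. Kdr had a mean of 85.7 in young MSCs and passed the filter on low values only through them. Pecam1 reached at most 22.9 and Cdh5 at most 4.05 in any library. Of the 10 stromal markers, 3 rose and 4 fell with co-culture.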
